A study of Bos taurus with 20 samples.

Results

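The nuclear genes for the subunits of the 5 oxidative phosphorylation complexes were followed in bovine embryos at day 14, with and without vitrification. They were chosen by name, as the protein-coding rows of the deposited table off chromosome M whose symbol marks a subunit of complex I (NDUFA, NDUFB, NDUFC, NDUFS and NDUFV genes), of complex II (SDHA to SDHD), of complex III (CYC1 and the UQCR genes), of complex IV (the nuclear COX genes) or of complex V (the ATP5 genes). The rule found 79 of the 15542 genes in the table, of which 36 belong to complex I, 4 to complex II, 9 to complex III, 12 to complex IV and 18 to complex V. NDUFA4 and its paralog NDUFA4L2 were placed in complex IV, where the NDUFA4 protein is known to sit despite its name. The study profiled RNA in bulk from 2 vitrified whole embryos, 6 fresh whole embryos, 7 samples of trophectoderm from vitrified embryos (vitrified TE) and 5 samples of trophectoderm from fresh embryos (fresh TE). TE is the outer epithelium from which the placenta forms, and a whole embryo also holds the epiblast and the hypoblast. Embryos were flushed from the uterus on day 14, when the ruminant embryo elongates. Vitrified embryos had been preserved by rapid cooling into a glass-like solid without ice, whereas fresh embryos had not. The design counts 9 vitrified and 12 fresh embryos, and the labels give neither the embryo behind each sample, nor its sex or breed, nor a batch. The labels do not say that samples of a group came from separate embryos, so p-values measure only how far these samples spread, and that spread may be technical.

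Oxidative phosphorylation makes ATP in the inner mitochondrial membrane. Complexes I and II take electrons from NADH and succinate and pass them through ubiquinone to complex III and through cytochrome c to complex IV, which reduces oxygen. Complexes I, III and IV pump protons as they do so, and complex V, the ATP synthase, lets the protons back and makes ATP. A few catalytic subunits are encoded in mitochondrial DNA, and the other subunits, including all of complex II, are encoded in the nucleus, so that a complex needs products of both genomes in balance. At elongation the bovine trophectoderm grows rapidly and is known for high metabolic activity.

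Values were RPKM, reads per kilobase and per 1000000 reads of the library, with an offset of 0.01 that was subtracted here. The kilobases were those of the genomic span of the gene, introns included. Levels of different genes are therefore not compared below. Libraries held 6.01 to 14.5 M reads (1 M is 1000000) in all and 0.107 to 0.51 M reads of the 79 genes. The fresh TE libraries stood apart. They held 6.01 to 7.85 M reads in all, and 6497 to 7207 genes reached 10 reads in them, against 8003 to 9803 genes in the other libraries. Listed genes took 57.5 to 63.9% of the reads over all whole embryos and 57.7 to 59.7% in vitrified TE, against 33.8 to 40.3% in fresh TE. Fresh TE 1 and 2, and fresh TE 3 and 4, also differed from each other far less than any other pair of fresh TE libraries, with a chi-square per degree of freedom of 1.88 and 1.48 over genes, against at least 11.9 for the other pairs. Both exceed 1, the level of counting noise, but repeat libraries of 1 embryo cannot be told apart from separate samples in this way. All 5 libraries were kept as the labels give them, so p-values against fresh TE may be too small. Trophectoderm markers (keratins, GATA2, GATA3, TFAP2C and others, 13 genes) summed to 2922 to 3443 RPKM in vitrified whole embryos, 1854 to 2649 RPKM in fresh whole embryos, 2590.0 to 3727 RPKM in vitrified TE and 2687 to 3469 RPKM in fresh TE. Hypoblast markers (8 genes) summed to 199.9 to 690.4 RPKM in vitrified and 562 to 989 RPKM in fresh whole embryos, and to 589 to 1252 RPKM in vitrified TE and 149.9 to 322 RPKM in fresh TE, the TE groups without overlap. The hypoblast sums of vitrified TE thus reached those of vitrified and fresh whole embryos, and those of fresh TE reached into the range of vitrified whole embryos. The samples labelled TE therefore cannot be taken as trophectoderm alone. Epiblast markers (9 genes) summed to 7.21 to 33.4 RPKM in vitrified whole embryos, against 4.36 to 12.9 RPKM in fresh ones, and to 5.93 to 10.3 RPKM in vitrified TE, against 1.79 to 4.61 RPKM in fresh TE. LIN28B was at 0 in all fresh TE libraries, and CUBN, a hypoblast marker, in both vitrified whole embryos, as was FOXL2, an endometrium marker. Blood and immune markers (6 genes) summed to 4.45 to 7.25 RPKM in vitrified TE and 9.97 to 15.9 RPKM in fresh TE, and endometrium markers (5 genes) to at most 6.14 RPKM in any library. A sum need not hold for each gene of its list, and the genes are counted below. The part of these differences in the results was not tested, and in bulk samples fewer cells of a type cannot be told apart from less RNA per cell.

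Members were tested with limma on log2(RPKM + 1) across all 10599 genes with enough reads, with Benjamini-Hochberg adjustment and a threshold of 0.05. Of the members 78 were tested, and only NDUFA4L2 fell under the filter. A difference below is on the log2(RPKM + 1) scale, which understates the change of genes of low level. Because the share of reads in listed genes differed between groups, every comparison was repeated under 4 other scalings (to the reads of listed genes, to the same off chromosome M, by median-ratio size factors, and by quantile normalization), and a call that passed the threshold in the same direction under all 5 is called stable. In vitrified TE against fresh TE, the median difference of all genes tested was 0.18 as deposited and 0.01 under median-ratio scaling. By gene in this comparison, 7 of 13 trophectoderm markers tested rose as deposited and 5 fell. Of 7 hypoblast markers tested 7 rose, and of 7 epiblast markers 2 rose and 0 fell. Of 5 blood and immune markers 3 rose and 1 fell, although their sum was lower. Of 3 endometrium markers 0 rose and 0 fell. Of all genes tested 69.0% rose and 6.66% fell.

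In TE, the members divided within complexes I, III, IV and V. All 4 succinate dehydrogenase genes of complex II were higher in vitrified TE, and each of the other complexes held genes that were higher and genes that were lower. As deposited, 40 of 78 members rose in vitrified TE against fresh TE, 18 fell and 20 did not pass, with a median difference of 0.34, beside 69.0% of all genes tested that rose and 6.66% that fell. Under median-ratio scaling 17 members rose and 50 fell, with a median of -0.68, beside 35.2% and 27.4% of all genes. Scaled to listed reads, to listed reads off chromosome M and by quantile normalization, 25, 27 and 21 members were higher, beside 49.4%, 53.4% and 26.2% of all genes. Under the same 3 scalings 36, 32 and 41 members were lower, beside 15.7%, 13.7% and 38.7% of all genes. With the near-identical fresh TE libraries averaged to 3 samples, 38 members rose and 17 fell. Stable rises numbered 17 members, against 25.4% of all genes tested, which was 21.8% of the members and so no larger than the share among all genes. Stable falls numbered 18, which was 23.1% of the members, against 6.66% of all genes. All 706 genes tested that fell as deposited also fell under the other 4 scalings, whereas of 7311 rises 2696 were stable. For falls in TE, being stable therefore adds nothing to the call as deposited. The numbers of stable rises and stable falls are thus not comparable. The 17 stable rises were NDUFS7, NDUFS8, NDUFS6, NDUFA3, NDUFA7, NDUFA8, NDUFA10 and NDUFB7 of complex I, SDHA, SDHB, SDHC and SDHD, CYC1 and UQCRC1 of complex III, COX6B2 of complex IV, and ATP5F1D and ATP5MC1 of complex V. The 18 stable falls were NDUFA1, NDUFA5, NDUFA6, NDUFB1, NDUFB2, NDUFB3 and NDUFS5 of complex I, UQCRB and UQCRQ of complex III, COX7A2 and COX8B of complex IV, and ATP5F1A, ATP5PF, ATP5ME, ATP5MF, ATP5MG, ATP5MD and ATP5MPL of complex V.

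In whole embryos, the same contrast was mostly one of lower members. As deposited, 33 of 78 members fell in vitrified against fresh whole embryos, 6 rose and 39 did not pass, with a median difference of -0.38, beside 3.94% of all genes tested that fell and 26.9% that rose, and a median over all genes of 0.06. Under median-ratio scaling 42 fell and 3 rose, beside 7.0% and 10.6%. Scaled to listed reads, to listed reads off chromosome M and by quantile normalization, 5, 5 and 6 members were higher, beside 21.0%, 20.1% and 8.68% of all genes. Under the same 3 scalings 36, 38 and 31 members were lower, beside 4.31%, 4.29% and 6.14% of all genes. Stable falls numbered 28 members (35.9%), against 3.06% of all genes, and stable rises were SDHA, SDHC and UQCRC1, with 7.87% of all genes rising stably. Only 2 vitrified whole embryos were sequenced, and without the second of them 12 members fell and 3 rose. The trophectoderm marker sums of vitrified and fresh whole embryos did not overlap. By gene, 7 of 13 trophectoderm markers tested rose as deposited and 1 fell, against 5 and 2 under median-ratio scaling. Of 7 hypoblast markers 1 rose and 0 fell, against 0 and 2, and of 7 epiblast markers 2 rose and 0 fell. Of 5 blood and immune markers 0 rose and 1 fell, and 0 of 3 endometrium markers passed. Their part in these results was not tested. The comparisons in TE and in whole embryos share no sample. Of the 18 members that fell in TE, 17 also fell in whole embryos, which is 94.4% of the TE list and 51.5% of the whole embryo list, and the exception was ATP5F1A. Over all genes tested, 170 fell in both, 24.1% of the TE list and 40.7% of the whole embryo list. ATP5F1B, NDUFA9, SDHA, SDHC and UQCRC1 rose in both as deposited, which is 12.5% of the TE list and 83.3% of the whole embryo list. Over all genes tested, 2584 rose in both, 35.3% of the TE list and 90.6% of the whole embryo list. Neither share of the members was thus larger than that of all genes. ATP5F1B fell in TE under median-ratio scaling, NDUFA9 fell in TE under 2 of the 5 scalings, and the rise of neither in whole embryos was stable. NDUFA4, NDUFB4, NDUFC2 and UQCR10 rose in TE as deposited and fell in whole embryos, but their direction in TE depended on the scaling, since each fell in TE under at least 1 other scaling.

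**Figure D1:**
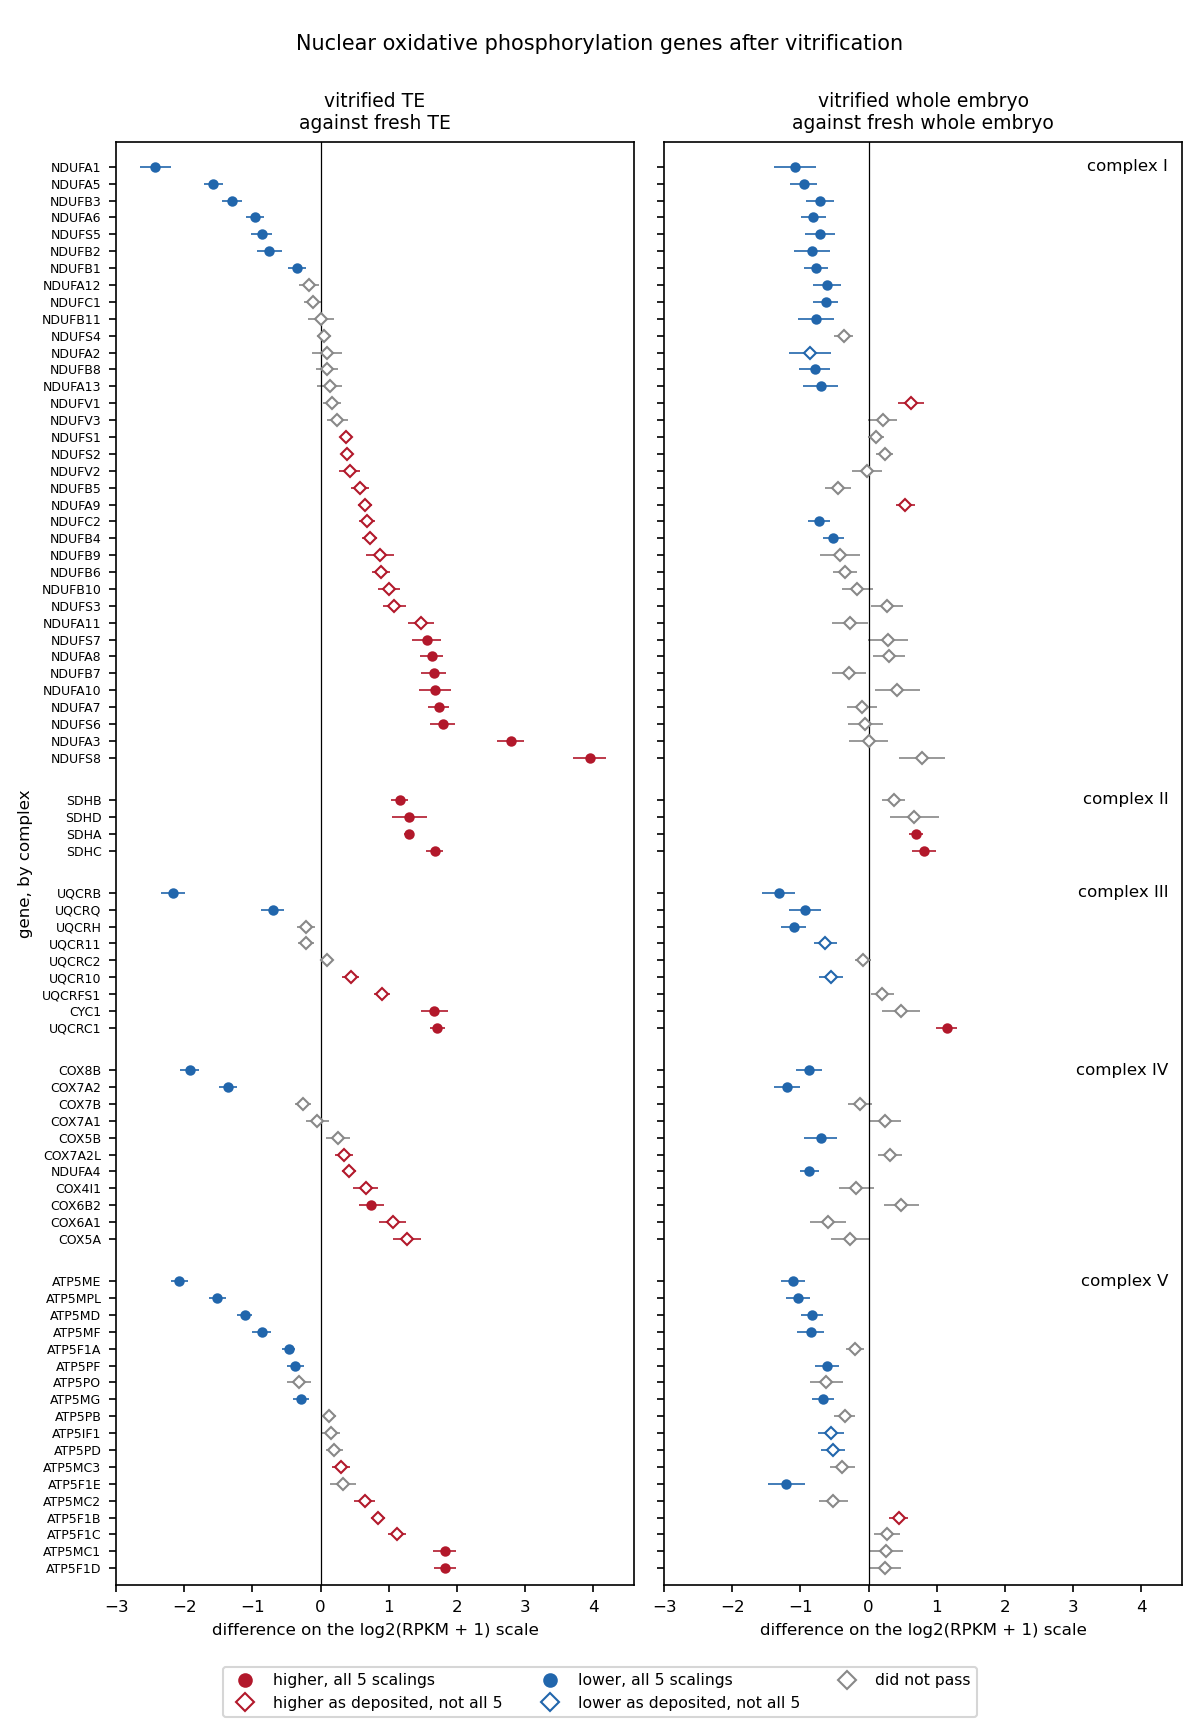
Difference of every tested member on the log2(RPKM + 1) scale, in vitrified TE against fresh TE (left) and in vitrified against fresh whole embryos (right), grouped by complex and ordered by the TE difference. Points are limma estimates with their standard error, and filled circles are calls that passed under all 5 scalings. NDUFS8, at 3.95, and NDUFA1, at -2.42, lie at the ends of the TE panel, and open points are members that did not pass as deposited or did not pass in the same direction under all 5.

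**Figure D2:**
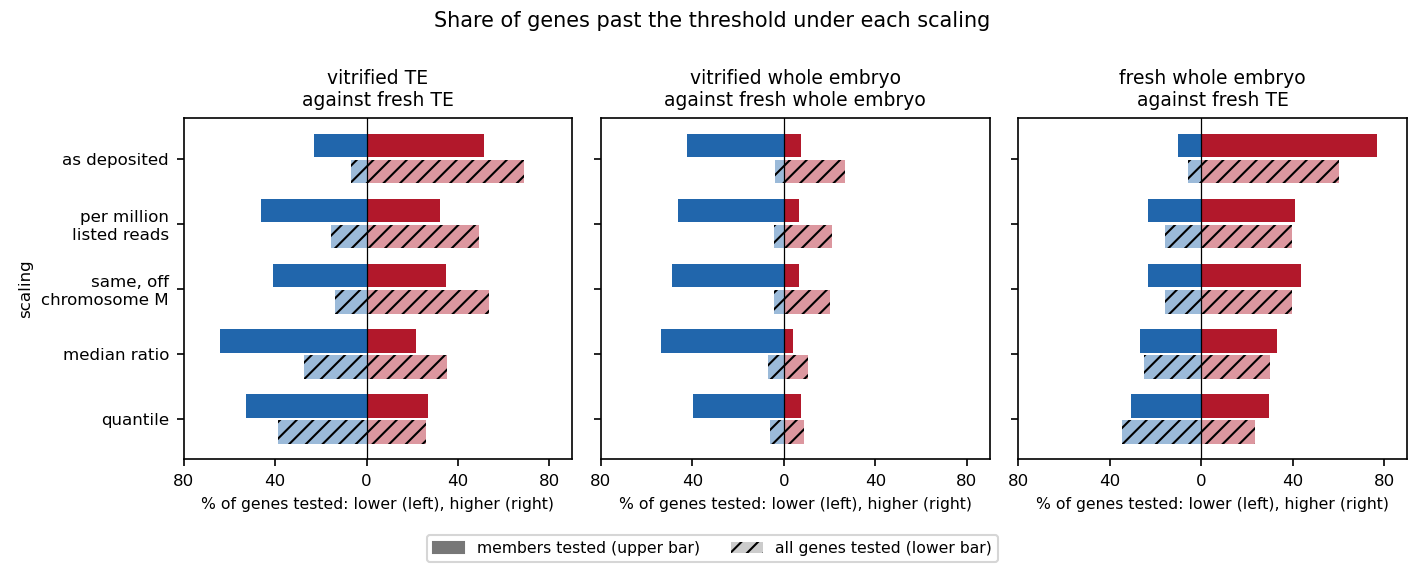
Share of genes past the threshold, lower to the left and higher to the right, for the 78 members tested (upper bars) and for all 10599 genes tested (lower bars), under the 5 scalings and in 3 comparisons. In vitrified TE against fresh TE the members went past the threshold 40 times upward and 18 times downward as deposited, and 17 times upward and 50 times downward under median-ratio scaling. In vitrified against fresh whole embryos falls outnumbered rises under every scaling shown.

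Complex I, the entry point for electrons from NADH, had the highest and the lowest differences of all members in TE. As deposited 20 of its 36 genes rose in vitrified TE and 7 fell, and under median-ratio scaling 8 rose and 22 fell. The rises were 55.6% and 22.2% of its genes, against 69.0% and 35.2% of all genes tested, and the falls 19.4% and 61.1%, against 6.66% and 27.4% of all genes, and these shares of all genes are the background of the counts by subunit role in TE that follow. Stable calls were 8 rises (22.2%) and 7 falls (19.4%), against 25.4% and 6.66% of all genes, so the share of stable rises was no larger than among all genes. Of the 7 core subunits, among them those that carry the flavin and the iron-sulfur clusters, 6 rose as deposited and none fell, but under median-ratio scaling 2 rose and 3 fell. NDUFS8, a core subunit that carries iron-sulfur clusters (chromosome 29, 46205045 to 46208795 on the plus strand, UMD3.1), had 70.2 to 89.8 RPKM (median 77.5) in vitrified TE, against 3.58, 3.2, 3.84, 4.14 and 6.26 RPKM in fresh TE. The groups lay far apart, with a mean 18.6-fold higher in vitrified TE, and the difference was 3.95 ± 0.24 (SE), adjusted p = 7.8e-11. It had 74.9 and 103 RPKM in vitrified whole embryos, against 20.2 to 73.1 RPKM (median 61) in fresh ones, so that the lowest vitrified embryo lay only just above the highest fresh one, and the difference did not pass (0.78, adjusted p = 0.088). NDUFS1, the largest subunit of the electron input arm, had 0.687 to 1.39 RPKM (median 1.04) in vitrified TE, against 0.759, 0.498, 0.541, 0.546 and 0.533 RPKM in fresh TE. The groups overlapped and the rise as deposited (0.37, adjusted p = 0.0005) turned to a fall under quantile normalization. NDUFS1 had 1.87 and 1.7 RPKM in vitrified whole embryos, against 1.29 to 1.9 RPKM (median 1.57) in fresh ones, with overlapping groups (0.11, adjusted p = 0.5). NDUFV1, which binds NADH and the flavin, had 12.4 to 19.3 RPKM (median 15.1) in vitrified TE, against 12, 11.2, 16.2, 15.8 and 11.7 RPKM in fresh TE, and the groups overlapped (0.17, adjusted p = 0.27). It fell in TE under the other 4 scalings. NDUFV1 had 13.2 and 21.5 RPKM in vitrified whole embryos, against 8.54 to 12.9 RPKM (median 10.8) in fresh ones. Both vitrified embryos were above all 6 fresh ones, and NDUFV1 rose (0.62, adjusted p = 0.019), but not under median-ratio scaling or quantile normalization, nor without the second vitrified embryo.

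Accessory subunits of complex I surround the core and are needed for its assembly. Of the 9 in the matrix arm 3 rose and 2 fell in vitrified TE as deposited, against 2 and 7 under median-ratio scaling, and of the 20 in the membrane arm 11 rose and 5 fell as deposited, against 4 and 12 under median-ratio scaling. NDUFA3, a small membrane-arm subunit (chromosome 18, 63462789 to 63466137 on the minus strand), had 13.3 to 23.8 RPKM (median 14.4) in vitrified TE, against 1.15, 0.598, 1.56, 1.85 and 2.35 RPKM in fresh TE, with every vitrified TE library above every fresh one (2.79 ± 0.20 (SE), adjusted p = 6.8e-10). It had 12 and 12.8 RPKM in vitrified whole embryos, against 6.3 to 16.2 RPKM (median 13.8) in fresh ones. Whole embryo groups overlapped and had near-equal means (-0.00, adjusted p = 1). NDUFS6, a zinc-binding subunit of the matrix arm, had 71.2 to 83.7 RPKM (median 74.8) in vitrified TE, against 16.5, 14.6, 25.2, 26.5 and 28.1 RPKM in fresh TE, and the groups did not overlap (1.80 ± 0.18 (SE), adjusted p = 6.1e-08). NDUFS6 had 76.2 and 83.6 RPKM in vitrified whole embryos, against 49.6 to 114 RPKM (median 91.9) in fresh ones, and the groups overlapped (-0.05, adjusted p = 0.91). NDUFA7, also of the matrix arm, had 36.9 to 42 RPKM (median 41) in vitrified TE, against 9.05, 7.2, 13.4, 12.9 and 16.4 RPKM in fresh TE, without overlap (1.73 ± 0.16 (SE), adjusted p = 1.1e-08). NDUFA7 had 34.1 and 29.8 RPKM in vitrified whole embryos, against 27.8 to 46.8 RPKM (median 33.9) in fresh ones, with overlap (-0.10, adjusted p = 0.76). These 3 genes, like NDUFS8, had their lowest group mean in fresh TE, below those of both whole embryo groups.

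NDUFA1, a single-helix subunit of the membrane arm encoded on the X chromosome (chromosome X, 4068880 to 4072037 on the plus strand), was the member with the deepest fall in TE. It had 28.9 to 54 RPKM (median 31.7) in vitrified TE, against 160.0, 155, 225, 224 and 258 RPKM in fresh TE, and every vitrified TE library lay below every fresh one (-2.42 ± 0.22 (SE), adjusted p = 1.4e-08). It had 34.7 and 35.9 RPKM in vitrified whole embryos, against 49.96 to 143 RPKM (median 70.4) in fresh ones, again without overlap (-1.08 ± 0.31 (SE), adjusted p = 0.013). NDUFA5, a matrix-arm subunit, had 7.23 to 9.29 RPKM (median 8.53) in vitrified TE, against 21.7, 22.1, 30, 31.9 and 30.6 RPKM in fresh TE. NDUFA5 had 8.87 and 8.68 RPKM in vitrified whole embryos, against 12.1 to 23.3 RPKM (median 18.1) in fresh ones. Neither pair of groups overlapped, and it fell in TE (-1.58, adjusted p = 8.1e-09) and in whole embryos (-0.95, adjusted p = 0.0013). NDUFB3, a membrane-arm subunit, had 12.1 to 16.5 RPKM (median 13.1) in vitrified TE, against 30.1, 29.7, 37.9, 40.3 and 39.2 RPKM in fresh TE. NDUFB3 had 11.9 and 11.7 RPKM in vitrified whole embryos, against 13.1 to 25.9 RPKM (median 21) in fresh ones. It fell in both, by 1.30 in TE (adjusted p = 1.5e-07) and by 0.71 in whole embryos (adjusted p = 0.011), without overlap. NDUFA6, which binds the mitochondrial acyl carrier protein, had 12.2 to 16.6 RPKM (median 14) in vitrified TE, against 24.5, 23.6, 32.8, 31.6 and 32.4 RPKM in fresh TE. NDUFA6 had 16.2 and 13.6 RPKM in vitrified whole embryos, against 19.4 to 30.3 RPKM (median 29) in fresh ones. It was lower in both vitrified groups, again without overlap (-0.96, adjusted p = 1.9e-06 in TE and -0.81, adjusted p = 0.0023 in whole embryos). In whole embryos 15 of the 36 complex I genes fell as deposited, 2 rose and 19 did not pass, and the falls included 11 of the 20 membrane-arm accessory subunits and none of the 7 core subunits, also under median-ratio scaling. Of all genes tested in whole embryos, 3.94% fell and 26.9% rose as deposited, and 7.0% fell and 10.6% rose under median-ratio scaling.

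NDUFC2, a membrane-arm subunit, had 14.8 to 20.1 RPKM (median 18.9) in vitrified TE, against 10.5, 9.68, 9.94, 10.2 and 14 RPKM in fresh TE. NDUFC2 had 17.8 and 16 RPKM in vitrified whole embryos, against 24.1 to 36.1 RPKM (median 28.5) in fresh ones. Vitrified libraries were above fresh ones in TE (0.68, adjusted p = 2.6e-05) and below them in whole embryos (-0.73, adjusted p = 0.0021), but under 2 of the other 4 scalings it fell in TE as well. NDUFA9, which sits near the ubiquinone site, had 5.74 to 7.66 RPKM (median 6.71) in vitrified TE, against 3.93, 3.47, 4.18, 4.57 and 3.63 RPKM in fresh TE. NDUFA9 had 10.6 and 10.04 RPKM in vitrified whole embryos, against 5.12 to 7.94 RPKM (median 6.97) in fresh ones. Vitrified libraries were higher in both without overlap (0.65, adjusted p = 8.4e-06 in TE and 0.54, adjusted p = 0.0064 in whole embryos), although in TE it fell under median-ratio scaling and quantile normalization. NDUFV3, a small subunit of the electron input arm, had 4.87 to 9.1 RPKM (median 7.47) in vitrified TE, against 5.42, 5.08, 5.76, 5.9 and 5.8 RPKM in fresh TE. NDUFV3 had 10.8 and 14.9 RPKM in vitrified whole embryos, against 7.78 to 12.7 RPKM (median 12) in fresh ones. Groups overlapped in both and neither difference passed (0.25, adjusted p = 0.14 in TE and 0.21, adjusted p = 0.49 in whole embryos).

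Complex II, succinate dehydrogenase, is the complex with no subunit from mitochondrial DNA and the one that also serves the citric acid cycle. It was the one complex whose tested genes all rose in vitrified TE, 4 of 4 and stably. Among all genes tested 69.0% rose as deposited and 25.4% rose stably. The median difference of the 4 SDH genes was 1.30 as deposited and 0.74 under median-ratio scaling. SDHA, the flavoprotein that oxidizes succinate (chromosome 20, 71940743 to 71964107 on the minus strand), had 4.27 to 4.57 RPKM (median 4.39) in vitrified TE, against 1.15, 1.11, 1.23, 1.22 and 1.25 RPKM in fresh TE. The vitrified TE libraries lay within a narrow range above every fresh one (1.30 ± 0.07 (SE), adjusted p = 3.3e-11). SDHA had 3.47 and 4.86 RPKM in vitrified whole embryos, against 1.67 to 2.39 RPKM (median 2.23) in fresh ones, without overlap (0.70 ± 0.10 (SE), adjusted p = 0.00013). SDHB, the iron-sulfur subunit, had 3.56 to 5.17 RPKM (median 4.21) in vitrified TE, against 1.18, 1.23, 1.22, 1.34 and 1.77 RPKM in fresh TE, without overlap (1.16 ± 0.12 (SE), adjusted p = 1e-07). SDHB had 5.25 and 6.59 RPKM in vitrified whole embryos, against 2.65 to 5.34 RPKM (median 4.6) in fresh ones, the groups overlapped and the difference did not pass (0.37, adjusted p = 0.11). SDHC, a membrane anchor, had 5.58 to 6.56 RPKM (median 6.16) in vitrified TE, against 1.47, 1.45, 1.09, 1.22 and 0.999 RPKM in fresh TE. SDHC had 7.86 and 8.31 RPKM in vitrified whole embryos, against 2.81 to 5.94 RPKM (median 4.5) in fresh ones. All vitrified libraries were above all fresh ones in both, and it rose in TE (1.68 ± 0.13 (SE), adjusted p = 1e-09) and in whole embryos (0.81 ± 0.17 (SE), adjusted p = 0.002). SDHD, the other anchor, had 0.887 to 2.86 RPKM (median 1.26) in vitrified TE, against 0.0301, 0.0155, 0.0473, 0.0766 and 0.0694 RPKM in fresh TE, without overlap (1.30, adjusted p = 0.00016). The fresh TE values rest on 1 to 6 reads per library, against 76 to 279 reads in vitrified TE. SDHD had 4.57 and 3.83 RPKM in vitrified whole embryos, against 0.473 to 4.34 RPKM (median 2.48) in fresh ones, with a wide spread among fresh embryos and no call (0.67, adjusted p = 0.16).

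**Figure D3:**
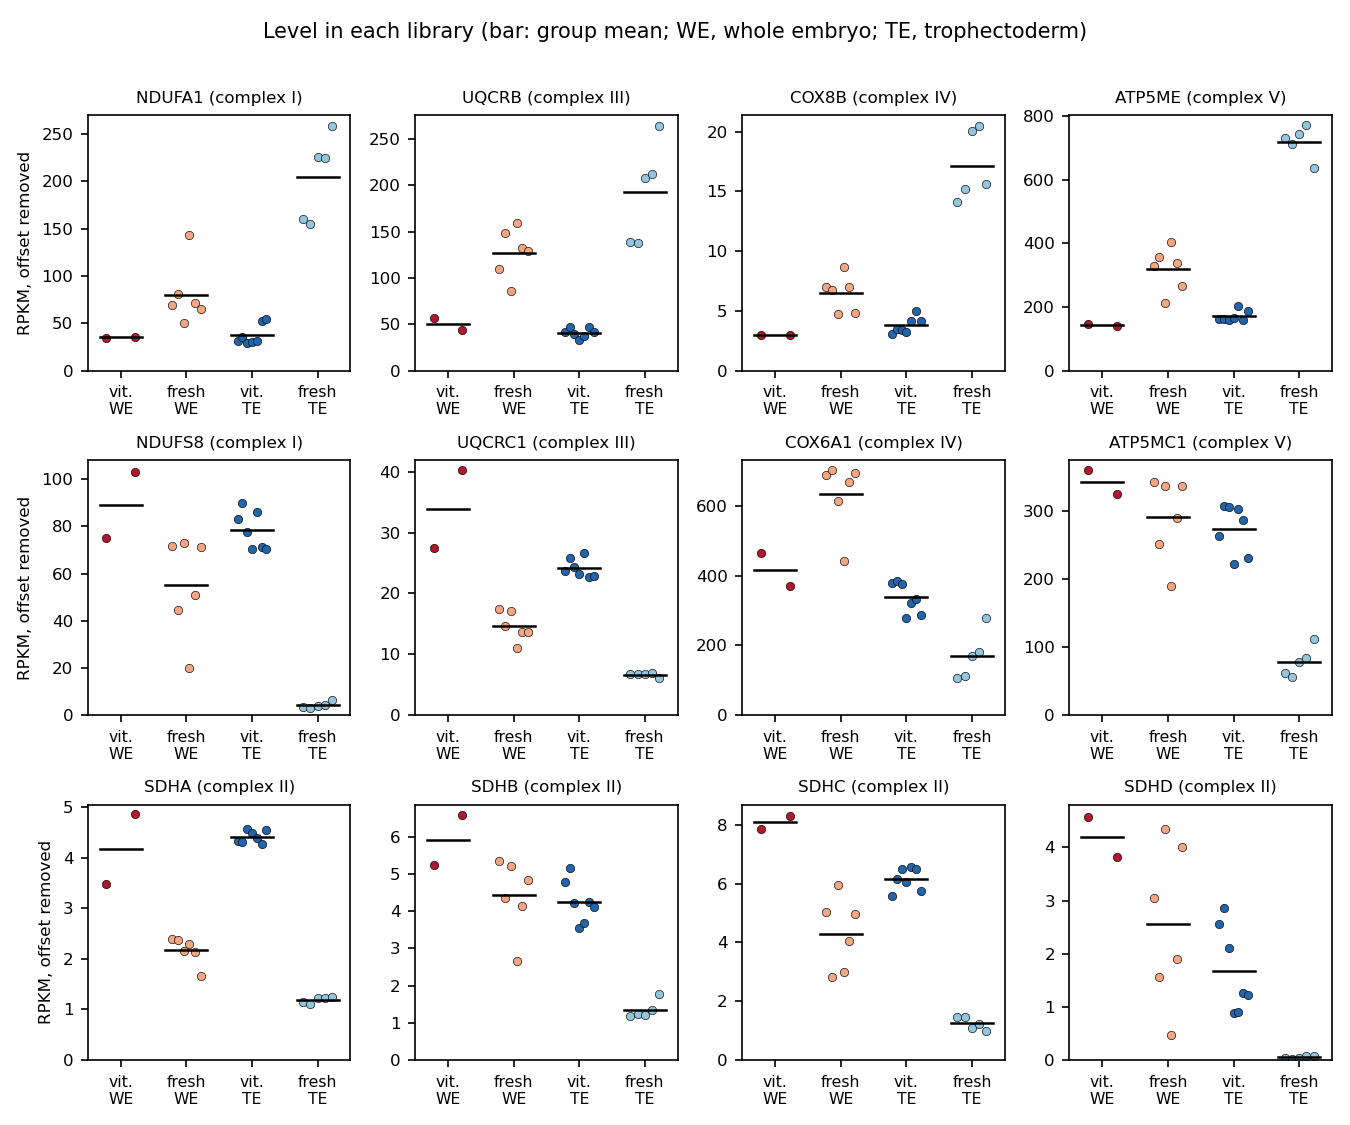
RPKM (offset removed, linear axes from 0) in each of the 20 libraries for 12 members, with vitrified whole embryos, fresh whole embryos, vitrified TE and fresh TE from left to right and a bar at each group mean. NDUFA1, UQCRB, COX8B and ATP5ME are lower in both vitrified groups than in their fresh groups, the SDH genes are lowest in fresh TE, and COX6A1 is higher in vitrified than in fresh TE as deposited but not under median-ratio scaling.

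Complex III, which passes electrons to cytochrome c, holds large redox and core proteins and small subunits. Of the 4 large proteins 3 rose in vitrified TE as deposited and none fell, and under median-ratio scaling 2 rose and 1, UQCRC2, fell. Of the 5 small subunits 2 fell and 1 rose as deposited, and all 5 fell under median-ratio scaling. UQCRC1, a core protein (chromosome 22, 51847305 to 51856057 on the plus strand), had 22.7 to 26.6 RPKM (median 23.6) in vitrified TE, against 6.73, 6.75, 6.75, 6.97 and 6.18 RPKM in fresh TE, without overlap (1.71 ± 0.11 (SE), adjusted p = 1.5e-10). UQCRC1 had 27.5 and 40.2 RPKM in vitrified whole embryos, against 11.1 to 17.4 RPKM (median 14.2) in fresh ones. It is one of the 3 members that rose stably in both contrasts (1.15 ± 0.15 (SE), adjusted p = 5.5e-05). CYC1, cytochrome c1, had 80.7 to 146 RPKM (median 106) in vitrified TE, against 26.7, 24.8, 41.4, 45.2 and 37.1 RPKM in fresh TE, without overlap (1.67 ± 0.20 (SE), adjusted p = 5.2e-07). CYC1 had 169.8 and 205 RPKM in vitrified whole embryos, against 90.6 to 179.9 RPKM (median 146) in fresh ones, where the groups overlapped and the difference did not pass (0.47, adjusted p = 0.21). UQCRFS1, the Rieske iron-sulfur protein, had 40.9 to 58.2 RPKM (median 53.5) in vitrified TE, against 27.2, 24.6, 24.5, 26.9 and 27.6 RPKM in fresh TE. The rise in TE (0.91, adjusted p = 1.7e-06) was not called under median-ratio scaling or quantile normalization. UQCRFS1 had 69.3 and 83.7 RPKM in vitrified whole embryos, against 56.7 to 75.8 RPKM (median 66.9) in fresh ones, with overlap (0.20, adjusted p = 0.38). UQCRC2, the other core protein, had 2.14 to 3.17 RPKM (median 2.54) in vitrified TE, against 2.57, 2.21, 2.25, 2.3 and 2.23 RPKM in fresh TE. UQCRC2 had 4.28 and 3.46 RPKM in vitrified whole embryos, against 3.5 to 4.65 RPKM (median 4.15) in fresh ones, with overlap in both and no call as deposited (0.09, adjusted p = 0.34 in TE and -0.08, adjusted p = 0.65 in whole embryos). UQCRC2 overlaps PDZD9 on the other strand by 4511 bases, so its reads are uncertain, since the counting by strand is not given in the sources used here.

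UQCRB, a small subunit known as a ubiquinone-binding protein (chromosome 14, 70329414 to 70334124 on the plus strand), fell most of complex III. It had 32.9 to 47 RPKM (median 41.3) in vitrified TE, against 139, 138, 209, 213 and 264 RPKM in fresh TE, and every vitrified TE library was below every fresh one (-2.17 ± 0.17 (SE), adjusted p = 2.3e-09). UQCRB had 56.5 and 43.5 RPKM in vitrified whole embryos, against 86.5 to 159 RPKM (median 131) in fresh ones, without overlap (-1.32 ± 0.24 (SE), adjusted p = 0.0006). UQCRQ, another small subunit, had 691 to 822 RPKM (median 726) in vitrified TE, against 782, 841, 1401, 1428 and 1784 RPKM in fresh TE. The highest vitrified TE library reached into the range of fresh TE, and UQCRQ fell (-0.70 ± 0.17 (SE), adjusted p = 0.0011). UQCRQ had 776 and 649 RPKM in vitrified whole embryos, against 1029 to 1606 RPKM (median 1391) in fresh ones, without overlap (-0.93 ± 0.24 (SE), adjusted p = 0.0062). All 5 small subunits fell in vitrified whole embryos, both as deposited and under median-ratio scaling, beside 3.94% and 7.0% of all genes tested. Of the 4 large proteins 1 rose and none fell in either, beside 26.9% and 10.6% of all genes that rose.

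Complex IV, cytochrome c oxidase, held genes that rose and genes that fell in TE. As deposited 4 of the 5 genes for subunits 4 to 6 rose in vitrified TE and none fell, but under median-ratio scaling 1 rose and 2 fell. Of the 4 genes for subunits 7 and 8, 2 fell as deposited, and 3 under median-ratio scaling. COX8B, the heart and muscle form of subunit 8 (chromosome 11, 107244220 to 107246853 on the plus strand), had 3.04 to 4.99 RPKM (median 3.46) in vitrified TE, against 14.1, 15.2, 20.1, 20.5 and 15.6 RPKM in fresh TE, and the groups did not overlap (-1.92 ± 0.14 (SE), adjusted p = 7.2e-10). COX8B had 3.01 and 3.01 RPKM in vitrified whole embryos, against 4.72 to 8.65 RPKM (median 6.87) in fresh ones, without overlap (-0.87 ± 0.20 (SE), adjusted p = 0.0025). COX8B overlaps PSMD13 on the other strand by 336 bases, which leaves its reads uncertain in the same way. COX7A2, the widely expressed form of subunit 7A, had 31.8 to 48.2 RPKM (median 41.4) in vitrified TE, against 91.4, 87.9, 106, 109 and 146 RPKM in fresh TE, without overlap (-1.36 ± 0.14 (SE), adjusted p = 4.5e-08). COX7A2 had 47.6 and 46.8 RPKM in vitrified whole embryos, against 84.7 to 131 RPKM (median 109.9) in fresh ones, without overlap (-1.20 ± 0.19 (SE), adjusted p = 0.00019). COX7A1, the heart and muscle form of the same subunit, had 0 to 0.144 RPKM (median 0) in vitrified TE, against 0, 0, 0, 0.354 and 0 RPKM in fresh TE. COX7A1 had 0 and 1.65 RPKM in vitrified whole embryos, against 0.126 to 0.74 RPKM (median 0.33) in fresh ones. It held 0 reads in 10 of 20 libraries and at most 23, where 3 reads correspond to 0.133 to 0.321 RPKM, so no difference was detectable at this depth in most libraries, and the highest value was that of the second vitrified whole embryo. Without the first one, so with the second alone, COX7A1 was called higher (adjusted p = 0.0015).

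COX6A1, the widely expressed form of subunit 6A, had 279.7 to 384 RPKM (median 334) in vitrified TE, against 108, 113, 169.8, 182 and 279.6 RPKM in fresh TE. The groups touched without overlapping, and COX6A1 rose as deposited (1.06, adjusted p = 7e-05) but not under median-ratio scaling (-0.05, adjusted p = 0.82). COX6A1 had 465 and 370.1 RPKM in vitrified whole embryos, against 442 to 701 RPKM (median 678) in fresh ones, with overlap and no call as deposited (-0.59, adjusted p = 0.1), although it fell under median-ratio scaling and when scaled to listed reads off chromosome M. COX5A, a matrix-side subunit, had 21.8 to 35.1 RPKM (median 33.2) in vitrified TE, against 10.5, 9.41, 10.5, 11.1 and 16 RPKM in fresh TE. It rose as deposited (1.27, adjusted p = 2e-05) but not under median-ratio scaling or quantile normalization. COX5A had 41.7 and 34.1 RPKM in vitrified whole embryos, against 23.6 to 61.6 RPKM (median 51.8) in fresh ones, with overlap (-0.27, adjusted p = 0.51). COX6B2, known in humans and mice as the testis form of subunit 6B, had 0.234 to 2.02 RPKM (median 0.826) in vitrified TE, against 0.108, 0.223, 0.0852, 0.092 and 0.10 RPKM in fresh TE. It was low in all groups and rose stably (0.74, adjusted p = 0.0013), as the only stable rise of complex IV in TE. The fresh TE values rest on 1 to 2 reads per library, against 3 to 24 reads in vitrified TE. COX6B2 had 1.27 and 1.05 RPKM in vitrified whole embryos, against 0.387 to 1.2 RPKM (median 0.429) in fresh ones, with overlap (0.48, adjusted p = 0.17). COX4I1, the largest nuclear subunit, had 66.9 to 89.9 RPKM (median 74.9) in vitrified TE, against 39.9, 35.3, 46.6, 51.2 and 72.9 RPKM in fresh TE. Groups overlapped, and the rise as deposited (0.67, adjusted p = 0.0032) turned to a fall under median-ratio scaling. COX4I1 had 95.6 and 78 RPKM in vitrified whole embryos, against 55.5 to 121 RPKM (median 107) in fresh ones, with overlap (-0.18, adjusted p = 0.62). It overlaps EMC8 on the other strand by 805 bases. NDUFA4 had 83.1 to 95.7 RPKM (median 90.6) in vitrified TE, against 69.1, 66, 56.4, 56.7 and 89.6 RPKM in fresh TE, with overlap, and it rose as deposited (0.42, adjusted p = 0.0013) and fell under median-ratio scaling. NDUFA4 had 79.1 and 79.7 RPKM in vitrified whole embryos, against 131 to 158 RPKM (median 148) in fresh ones, without overlap, and it fell stably (-0.87 ± 0.14 (SE), adjusted p = 0.00029). NDUFA4L2, the hypoxia-induced paralog in humans, was near background, with 0 reads in 9 of 20 libraries and at most 5 reads. It had 0 to 0.218 RPKM (median 0) in vitrified TE, against 0.0703, 0, 0.0553, 0 and 0 RPKM in fresh TE. NDUFA4L2 had 0 and 0.194 RPKM in vitrified whole embryos, against 0 to 0.186 RPKM (median 0.0849) in fresh ones, where 3 reads correspond to 0.0896 to 0.217 RPKM.

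In complex V, all 5 genes for the small subunits of its membrane part (ATP5ME, ATP5MF, ATP5MG, ATP5MD and ATP5MPL), which bend the membrane and join synthases into dimers, fell stably in vitrified TE and again in vitrified whole embryos. Of all genes tested, 6.66% fell stably in TE and 3.06% in whole embryos. The 3 genes for the c-ring, the rotor that protons turn, rose in TE as deposited, but only ATP5MC1 did so stably, and under median-ratio scaling ATP5MC2 and ATP5MC3 fell. ATP5ME, subunit e (chromosome 6, 108851271 to 108852813 on the minus strand), had 158 to 203 RPKM (median 163) in vitrified TE, against 731, 713, 744, 770.4 and 635 RPKM in fresh TE. All vitrified TE libraries were below all fresh ones, 4.21-fold lower in mean (-2.07 ± 0.13 (SE), adjusted p = 9.7e-11). ATP5ME had 146 and 141 RPKM in vitrified whole embryos, against 213 to 402 RPKM (median 334) in fresh ones, without overlap (-1.11 ± 0.18 (SE), adjusted p = 0.00024). ATP5MPL, the proteolipid of the same region, had 55.9 to 70.2 RPKM (median 63.8) in vitrified TE, against 147, 151, 200.1, 209 and 217 RPKM in fresh TE. ATP5MPL had 57.2 and 51 RPKM in vitrified whole embryos, against 85 to 139 RPKM (median 112) in fresh ones. Neither pair overlapped, and it fell in TE (-1.51, adjusted p = 5.9e-09) and in whole embryos (-1.04, adjusted p = 0.00041). ATP5MD, which binds beside it, had 9.56 to 11.7 RPKM (median 10.7) in vitrified TE, against 21.9, 23.4, 24.4, 25.1 and 26.7 RPKM in fresh TE. ATP5MD had 8.56 and 9.8 RPKM in vitrified whole embryos, against 12.4 to 23.3 RPKM (median 17.1) in fresh ones, again without overlap, and it fell in TE (-1.11, adjusted p = 6.6e-08) and in whole embryos (-0.83, adjusted p = 0.00091). The other 2, ATP5MF and ATP5MG, fell by 0.86 and 0.29 in vitrified TE and by 0.85 and 0.67 in vitrified whole embryos, and the TE groups overlapped for ATP5MG.

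Among the 5 genes of the F1 head and central stalk, where ATP is made, 3 rose and 1 fell in vitrified TE as deposited, and 1 rose and 3 fell under median-ratio scaling. ATP5F1D, the delta subunit of the stalk (chromosome 7, 45302252 to 45304424 on the plus strand), had 135 to 182 RPKM (median 152) in vitrified TE, against 32.6, 30.2, 53.7, 55.8 and 47.4 RPKM in fresh TE, without overlap (1.83 ± 0.16 (SE), adjusted p = 9.1e-09). ATP5F1D had 136 and 185 RPKM in vitrified whole embryos, against 102 to 177 RPKM (median 138) in fresh ones, with overlap (0.24, adjusted p = 0.45). ATP5F1C, the gamma subunit, had 20.4 to 29.5 RPKM (median 28.2) in vitrified TE, against 10.4, 10.1, 10.6, 11.6 and 13.8 RPKM in fresh TE. The rise as deposited (1.12, adjusted p = 6e-07) was not called under median-ratio scaling or quantile normalization. ATP5F1C had 34.3 and 38 RPKM in vitrified whole embryos, against 21.8 to 38.2 RPKM (median 30.8) in fresh ones, with overlap (0.27, adjusted p = 0.3). The catalytic beta subunit and its partner alpha moved apart in TE as deposited. ATP5F1B, beta, had 118 to 164 RPKM (median 149) in vitrified TE, against 84.5, 74.3, 72.8, 78.1 and 84.8 RPKM in fresh TE, without overlap, and it rose (0.84 ± 0.10 (SE), adjusted p = 7.5e-07), while under median-ratio scaling it fell (-0.27, adjusted p = 0.024). ATP5F1A, alpha (chromosome 24, 46300459 to 46309366 on the minus strand), had 64.4 to 84.6 RPKM (median 73.1) in vitrified TE, against 107, 103, 89.6, 90.3 and 115 RPKM in fresh TE, also without overlap, and it fell stably (-0.47 ± 0.09 (SE), adjusted p = 0.00019). ATP5F1B had 189 and 212 RPKM in vitrified whole embryos, against 129 to 164 RPKM (median 151) in fresh ones, without overlap (0.44, adjusted p = 0.028), and the rise was not called under 3 of the other 4 scalings or without either vitrified embryo. ATP5F1A had 112 and 115 RPKM in vitrified whole embryos, against 118 to 139 RPKM (median 131) in fresh ones. The groups did not overlap, but the difference did not pass (-0.20, adjusted p = 0.25). ATP5IF1, the inhibitor of ATP hydrolysis, had 183 to 245 RPKM (median 208) in vitrified TE, against 146, 149, 212, 215 and 224 RPKM in fresh TE, with overlap (0.15, adjusted p = 0.32), and it fell in TE under the other 4 scalings. ATP5IF1 had 219 and 226 RPKM in vitrified whole embryos, against 260.3 to 432 RPKM (median 319) in fresh ones, without overlap, and it fell (-0.55, adjusted p = 0.036), but not under quantile normalization, without either vitrified embryo, or without fresh whole embryo 1, 2 or 5.

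The c-ring genes ATP5MC1, ATP5MC2 and ATP5MC3 encode the same mature protein with different targeting sequences, and their shares of the summed reads do not depend on the scaling of a library. ATP5MC1 (chromosome 19, 38253561 to 38255681 on the minus strand) had 222 to 307 RPKM (median 286) in vitrified TE, against 62.7, 55.9, 78.8, 83.5 and 112 RPKM in fresh TE, without overlap (1.82 ± 0.17 (SE), adjusted p = 1.8e-08). ATP5MC1 had 359.8 and 325 RPKM in vitrified whole embryos, against 190.0 to 343 RPKM (median 313) in fresh ones, with overlap (0.26, adjusted p = 0.43). ATP5MC2 had 41.5 to 78.8 RPKM (median 56.1) in vitrified TE, against 33.3, 34.2, 33.9, 34.2 and 46.3 RPKM in fresh TE, and ATP5MC3 had 215 to 359 RPKM (median 330.1) in vitrified TE, against 251, 249, 220.1, 226 and 244 RPKM in fresh TE. Both pairs overlapped, and neither rise (0.65, adjusted p = 0.00078 and 0.30, adjusted p = 0.049) was stable. The call of ATP5MC3 was also lost without any 1 of the 5 fresh TE libraries or of vitrified TE 1, 2, 3, 6 or 7. ATP5MC2 had 84.3 and 111 RPKM in vitrified whole embryos, against 113 to 151 RPKM (median 147) in fresh ones, and ATP5MC3 had 340.2 and 419.9 RPKM in vitrified whole embryos, against 414 to 554 RPKM (median 501) in fresh ones. Neither difference passed as deposited (-0.52, adjusted p = 0.069 and -0.38, adjusted p = 0.12), and without fresh whole embryo 4 that of ATP5MC2 did (adjusted p = 0.045). As shares, ATP5MC1 made up 33.9 ± 4.03% of the reads of the 3 genes in vitrified TE and 15.8 ± 3.57% in fresh TE (SD, n = 7 and 5, exact two-sided permutation test, p = 0.0025, the smallest this design allows, and 0.021 adjusted over 20 tests of shares). ATP5MC3 made up 53.3 ± 4.31% in vitrified TE and 71 ± 4.49% in fresh TE (exact permutation p = 0.0025, adjusted 0.021), and ATP5MC2 12.7 ± 1.79% and 13.1 ± 1.09% (adjusted 0.74). In whole embryos the ATP5MC1 share was 32.1 ± 5.02% in vitrified and 22.8 ± 2.22% in fresh embryos, and the ATP5MC3 share 51.8 ± 3.27% and 57.5 ± 1.79% (SD, n = 2 and 6). The groups did not overlap in either, but an exact permutation test of 2 against 6 cannot go below p = 0.071, which both reached (adjusted 0.16). With the near-identical fresh TE libraries averaged to 3 samples, the differences in TE were 17.4 percentage points for ATP5MC1 and -16.7 for ATP5MC3, still without overlap. Both reached the smallest p that an exact permutation test of 7 against 3 allows, 0.017, which adjusted over 20 tests was 0.12.

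**Figure D4:**
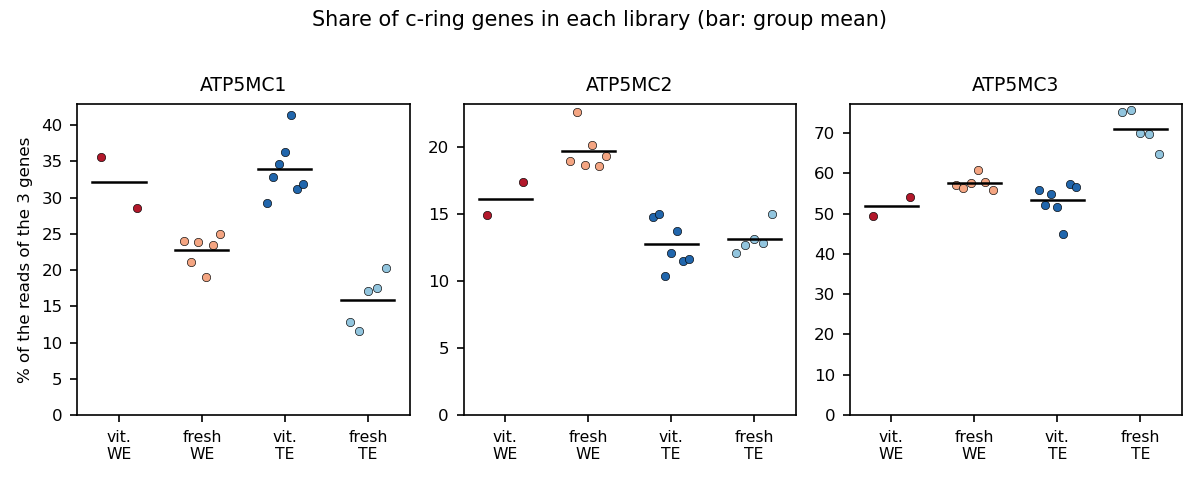
Share of each c-ring gene in the summed reads of ATP5MC1, ATP5MC2 and ATP5MC3, in percent, in each library, with a bar at each group mean and vitrified whole embryos, fresh whole embryos, vitrified TE and fresh TE from left to right. The ATP5MC1 share averages 33.9% in vitrified TE and 15.8% in fresh TE, without overlap, and the ATP5MC3 share is highest in fresh TE.

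Fresh whole embryos against fresh TE compares the whole conceptus with samples labelled as its outer layer. As deposited 60 of 78 members were higher in fresh whole embryos, 8 were lower and 10 did not pass, with a median difference of 0.86 and of 0.14 over all genes, beside 60.0% of all genes tested that were higher and 5.97% that were lower. Under median-ratio scaling 26 were higher and 21 lower, beside 30.0% and 25.0%. Scaled to the listed reads, to listed reads off chromosome M and by quantile normalization, 32, 34 and 23 members were higher, beside 39.7%, 39.6% and 23.6% of all genes. Under these 3 scalings 18, 18 and 24 members were lower, beside 16.0%, 15.7% and 34.7% of all genes. Stable calls were 21 higher members, 26.9% against 23.3% of all genes, and 8 lower members, 10.3% against 5.96% of all genes. The share of stably higher members is thus near that of all genes. Of 633 genes tested that were lower as deposited 632 were stably lower, so being stable again adds little to a lower call. The 8 lower members were ATP5MD, ATP5ME, ATP5MPL, COX8B, NDUFA1, NDUFA5, NDUFB3 and UQCRB. This comparison and that of vitrified TE against fresh TE share the fresh TE libraries, so their values are set side by side: NDUFA1 differed by -1.40 in fresh whole embryos against fresh TE and by -2.42 in vitrified TE against fresh TE, ATP5ME by -1.20 and -2.07, COX8B by -1.28 and -1.92, and UQCRB by -0.57 and -2.17. Among the higher members NDUFS8 differed by 3.34 ± 0.25 (SE), adjusted p = 2.8e-09, NDUFA3 by 2.46 ± 0.21 (SE), adjusted p = 1.3e-08, COX6A1 by 1.96 ± 0.20 (SE), adjusted p = 1.1e-07 and ATP5MC1 by 1.89 ± 0.18 (SE), adjusted p = 3.9e-08. ATP5MC2 was 3.84-fold higher in mean in fresh whole embryos than in fresh TE, without overlap (1.91, adjusted p = 7.6e-09), and its share of the c-ring reads was 19.7 ± 1.53% in fresh whole embryos and 13.1 ± 1.09% in fresh TE (SD, n = 6 and 5, exact two-sided permutation p = 0.0043, adjusted 0.021). The ATP5MC1 share was 22.8 ± 2.22% in fresh whole embryos and 15.8 ± 3.57% in fresh TE (exact permutation p = 0.0087, adjusted 0.035), and the ATP5MC3 share 57.5 ± 1.79% and 71 ± 4.49% (adjusted 0.021). With the near-identical fresh TE libraries averaged none of these 3 passed after adjustment, in a design of 6 against 3 where the smallest exact permutation p is 0.024, and the groups still did not overlap for ATP5MC2 and ATP5MC3. SDHD and CYC1 were also stably higher (1.64, adjusted p = 2.8e-05 and 1.94, adjusted p = 2.1e-07), and UQCRFS1 was higher under 4 of the 5 scalings (1.30, adjusted p = 5e-08). Of the marker sums given above, that of the hypoblast was higher and that of the trophectoderm lower in every fresh whole embryo than in every fresh TE library, while the epiblast sums overlapped, and their part in these differences was not tested. By gene, 6 of 7 hypoblast markers tested were higher as deposited and 0 were lower. Of 7 epiblast markers 4 were higher and 0 lower, although their sums overlapped. Blood and immune markers were higher for 3 of 5 and lower for 1, and endometrium markers higher for 2 of 3 and lower for 0. Of 13 trophectoderm markers 4 were higher and 8 lower, beside the 60.0% and 5.97% of all genes.

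Vitrified whole embryos and vitrified TE differed in fewer members. In vitrified whole embryos 11 of 78 members were higher than in vitrified TE and 0 were lower (limma, with 20 higher and 1 lower at an unadjusted p under 0.05), beside 15.3% and 3.59% of all genes tested. Under median-ratio scaling 1 was higher, beside 3.26% and beside 2.68% lower. Scaled to listed reads, to listed reads off chromosome M and by quantile normalization, 7, 2 and 1 members were higher, beside 8.47%, 4.87% and 2.59% of all genes. Under the same 3 scalings 0, 0 and 1 members were lower, beside 3.33%, 3.97% and 2.07% of all genes. Only ATP5F1A was higher under all 5 scalings, beside 2.42% of all genes, and 0 members were lower, beside 1.78%, and without the second vitrified whole embryo 0 members were higher. ATP5F1A averaged 113 ± 2.47 RPKM in vitrified whole embryos and 72.8 ± 7.64 RPKM in vitrified TE (SD, n = 2 and 7, no overlap, 0.64, adjusted p = 0.0044), and the call was lost without the second vitrified whole embryo (adjusted p = 0.075). NDUFA9 averaged 10.3 ± 0.425 RPKM in vitrified whole embryos and 6.8 ± 0.699 RPKM in vitrified TE (0.54, adjusted p = 0.012), and UQCRC2 3.87 ± 0.579 RPKM and 2.54 ± 0.37 RPKM (0.46, adjusted p = 0.013). NDUFS1 averaged 1.79 ± 0.121 RPKM in vitrified whole embryos and 1.05 ± 0.251 RPKM in vitrified TE (0.45, adjusted p = 0.013), and NDUFV3 12.8 ± 2.91 RPKM and 6.99 ± 1.72 RPKM (0.80, adjusted p = 0.015). The calls of these 4 were lost under at least 2 other scalings and without the second vitrified whole embryo, and those of NDUFA9, NDUFS1 and UQCRC2 also without the first.

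The difference between the vitrification effects, whole embryo minus TE, was tested as an interaction. As deposited it was lower for 39 of 78 members and higher for 4, beside 28.4% and 3.98% of all genes tested, and under median-ratio scaling it was lower for 11 and higher for 19, beside 13.2% and 14.0%. Scaled to listed reads, to listed reads off chromosome M and by quantile normalization, 13, 12 and 18 members were higher, beside 9.22%, 7.76% and 19.5% of all genes. Under the same 3 scalings 17, 26 and 14 members were lower, beside 16.5%, 19.8% and 11.3% of all genes. Stable calls were 11 lower members, beside 10.8% of all genes, and 4 higher ones, beside 3.66%. The 4 were ATP5ME, COX8B, NDUFA1 and UQCRB, which fell after vitrification in both tissues and fell further in TE. The effect in whole embryos was below that in TE by 3.17 for NDUFS8 (difference -3.17, adjusted p = 2.4e-05), and the differences were -2.79, adjusted p = 1.5e-05 for NDUFA3, -1.83, adjusted p = 6.4e-05 for NDUFA7, -1.41, adjusted p = 3.8e-05 for NDUFC2 and -1.29, adjusted p = 3.9e-05 for NDUFA4. For NDUFA1 it was 1.34, adjusted p = 0.011, and for ATP5ME 0.96, adjusted p = 0.0029.

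Summed over a complex, reads of the nuclear genes took a smaller share of the reads of all listed genes in the vitrified groups, except for complex II. No test was made on these sums, which are dominated by the genes with most reads. All members together took 4.03 ± 0.206% in vitrified whole embryos, 5.65 ± 0.428% in fresh whole embryos, 3.75 ± 0.235% in vitrified TE and 5.7 ± 0.711% in fresh TE (SD, n = 2, 6, 7 and 5), without overlap between vitrified and fresh libraries of either kind. Complex I took 1.22 ± 0.0649% in vitrified TE and 1.58 ± 0.272% in fresh TE, and complex III 0.584 ± 0.0248% and 1.12 ± 0.21%. Complex V took 1.37 ± 0.111% in vitrified TE and 2.34 ± 0.135% in fresh TE, and complex IV 0.514 ± 0.0488% and 0.633 ± 0.119%, where the ranges overlapped. Over listed reads off chromosome M the ranges of complex I overlapped as well, at 1.29 to 1.43% in vitrified TE and 1.38 to 2.11% in fresh TE. In whole embryos the complex V share was 1.56 ± 0.0568% in vitrified and 2.13 ± 0.125% in fresh embryos, and the complex I share 1.24 ± 0.0585% and 1.68 ± 0.165%. Complex II went the other way, with 0.0738 ± 0.00362% in vitrified TE and 0.0279 ± 0.00257% in fresh TE, and 0.0903 ± 0.00528% in vitrified and 0.0567 ± 0.0116% in fresh whole embryos, without overlap in either pair.

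**Figure D5:**
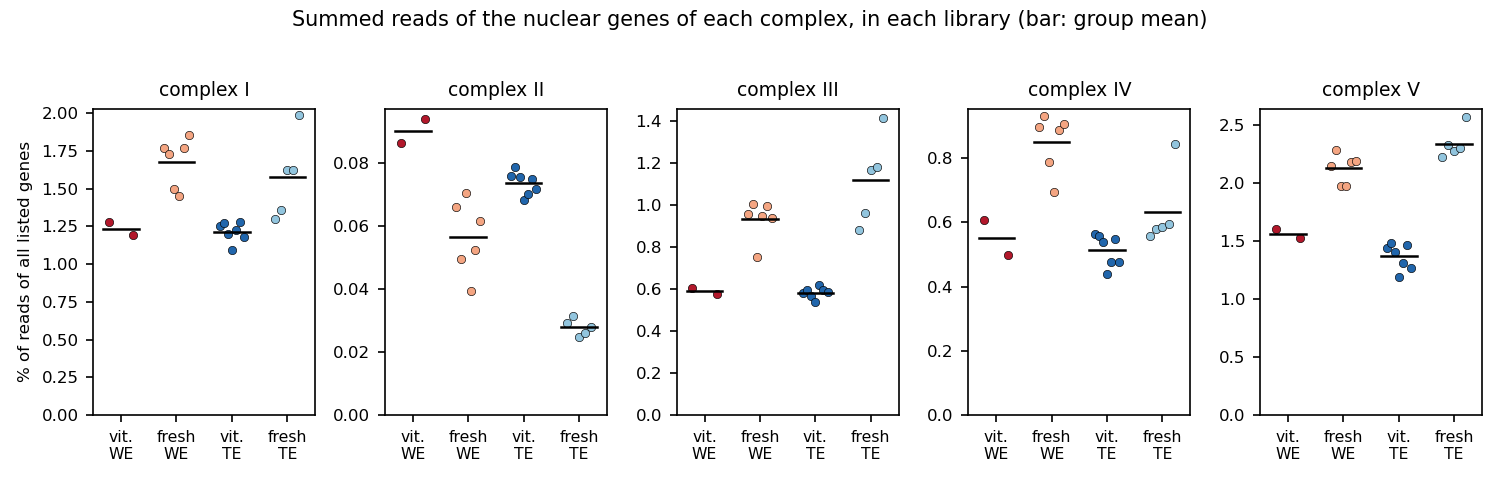
Reads of the nuclear genes of each complex as a percent of the reads of all listed genes, in each library, with a bar at each group mean and vitrified whole embryos, fresh whole embryos, vitrified TE and fresh TE from left to right. Complexes I, III and V are lower in the vitrified groups than in their fresh groups, and complex II is higher, at 0.0738% in vitrified TE and 0.0279% in fresh TE.

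The 13 subunits encoded in mitochondrial DNA complete complexes I, III, IV and V. All 13 rose in vitrified TE against fresh TE, with a median difference of 3.88, and 12 of 13 did so under median-ratio scaling, beside 69.0% and 35.2% of all genes tested. In whole embryos 3 rose (23.1%), 2 fell (15.4%) and 8 did not pass, beside 26.9% of all genes that rose and 3.94% that fell. The share that rose in whole embryos was thus near that of all genes. MT-ND4 averaged 2281 ± 403 RPKM in vitrified TE and 111 ± 6.28 RPKM in fresh TE (SD, n = 7 and 5, 4.34, adjusted p = 5e-13), and COX1 8001 ± 1288 and 679.6 ± 114 RPKM. Reads of the mitochondrial genes over those of the nuclear members stood at 1.58 to 2.96 in vitrified TE and 0.172 to 0.282 in fresh TE, without overlap, and at 0.774 to 1.2 in vitrified and 0.561 to 0.928 in fresh whole embryos, with overlap. For complex IV the ratio was 9.29 ± 2.33 in vitrified TE and 1.49 ± 0.344 in fresh TE, and for complex V 0.526 ± 0.171 and 0.0312 ± 0.00874 (SD). These ratios are of reads in the library and do not depend on its scaling.

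Other genes that serve the pathway were read from lists. Their counts in TE stand beside the same shares of all genes as above, 69.0% that rose and 6.66% that fell as deposited, and 35.2% and 27.4% under median-ratio scaling. Of 44 tested assembly factors of the complexes, 30 rose (68.2%, near the share of all genes) and 3 fell in vitrified TE as deposited, and 11 rose and 16 fell under median-ratio scaling. BCS1L, which inserts the Rieske protein into complex III, averaged 17.4 ± 1.69 RPKM in vitrified TE and 1.91 ± 0.354 RPKM in fresh TE (2.67, adjusted p = 8.2e-13), and 23 ± 4.85 RPKM in vitrified and 11.7 ± 1.57 RPKM in fresh whole embryos (0.92, adjusted p = 0.00035). SCO2, a copper chaperone of complex IV, averaged 18 ± 2.45 RPKM in vitrified TE and 3.16 ± 0.86 RPKM in fresh TE, and NDUFAF3, a complex I assembly factor, 84.4 ± 6.45 and 15.4 ± 1.9 RPKM. Of 17 tested genes of pyruvate dehydrogenase and the citric acid cycle, 14 rose (82.4%) and 2 fell as deposited, and 6 rose (35.3%) and 6 fell under median-ratio scaling. CS, citrate synthase, averaged 11.2 ± 0.978 RPKM in vitrified TE and 1.94 ± 0.33 RPKM in fresh TE (2.06, adjusted p = 8.2e-13). Of 19 tested carriers and exchangers, 12 rose (63.2%) and 1 fell as deposited, and 5 rose (26.3%) and 10 fell under median-ratio scaling. VDAC1, the outer membrane channel, averaged 10.1 ± 1.08 RPKM in vitrified TE and 2.45 ± 0.342 RPKM in fresh TE, and UCP2, a carrier of the uncoupling protein family, 7.48 ± 1.43 and 0.0302 ± 0.0292 RPKM. Of 21 tested regulators of mitochondrial gene expression, 16 rose (76.2%) and 2 fell as deposited, and 8 rose (38.1%) and 6 fell under median-ratio scaling. MYC averaged 8.93 ± 1.87 RPKM in vitrified TE and 0.499 ± 0.0787 RPKM in fresh TE, and POLRMT, the mitochondrial RNA polymerase, 1.94 ± 0.419 and 0.374 ± 0.113 RPKM (SD, n = 7 and 5 for these TE values). In whole embryos, beside 26.9% of all genes tested that rose and 3.94% that fell as deposited, 12 of 44 assembly factors rose (27.3%) and 4 fell, 7 of 17 pyruvate dehydrogenase and citric acid cycle genes rose (41.2%) and 0 fell, 4 of 19 carriers rose (21.1%) and 1 fell, and 5 of 21 regulators rose (23.8%) and 2 fell. Under median-ratio scaling, beside 10.6% and 7.0% of all genes, 3 assembly factors rose and 8 fell, 2 pyruvate dehydrogenase and citric acid cycle genes rose and 0 fell, 0 carriers rose and 1 fell, and 2 regulators rose and 4 fell.

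The members lay on 24 chromosomes, with 9 on chromosome 7, and 3 (NDUFA1, NDUFB11 and COX7B) on X. ATP5F1D, NDUFS7, UQCR11 and UQCRQ lay within 768.1 kb of chromosome 7, from 45302252 to 46070318, and their differences in TE were 1.83, 1.56, -0.21 and -0.70, so neighbours went in different directions. Members spanned a median of 5.62 kb, against 18.62 kb over all genes tested. Those that rose in vitrified TE spanned a median of 7.34 kb and those that fell 5.43 kb, with ranges of 1.49 to 30.63 kb and 1.21 to 15.81 kb that overlapped. Transcript length was not analysed here.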

How the data were processed

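RNA-seq values of all 20 samples came from 1 table. The submitters' processing notes name FastQC, STAR 2.5.3a, Partek and the UMD3.1 genome. How reads were assigned to genes, and whether by strand, was not given in the sources used here. No unit label stands beside the RPKM values that the authors deposited. The unit was read from the values: with an offset of 0.01 subtracted, 94.4 to 95.8% of the values of up to 1000 reads per library came within 0.1 of a whole number of reads per kilobase of genomic span and per 1000000 library reads. The sequences of the members were not used here.

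The 10599 genes that reached 10 recovered reads in 2 or more libraries were tested with limma 3.58.1 (R 4.3.3, trend and robust) on log2(RPKM + 1), with 1 mean per group and Benjamini-Hochberg adjustment. No count test was run. Shares within isoform sets were compared by exact permutation tests over all regroupings of the samples, and sets with under 20 reads in any library were not tested. Of 9 shares planned 5 were tested. The others were dropped because COX4I2, COX6A2, COX6B1 and COX8A were not among the listed genes. COX6B2 and COX8B were therefore read without their paralogs. The limma script was tested on simulated data. Members, gene lists and tests were chosen with earlier results of these data known. Values are printed per library for 43 members: those at the ends of each comparison by complex, those with the smallest p, the main catalytic subunits and the isoform sets. Alternatives covered scaling, pseudocount, filter, groups in the fit, replicate block, near-identical libraries and each library left out.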

Additional observations from a re-analysis of the deposited data

Results flagged for a closer look

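Single libraries stood apart from the rest of their group in 16 of the 129 groups looked at over the 43 members described by library. Chance gives about 1 in 20 for a single group. The groups are not independent, since the same libraries recur across genes and some fresh TE libraries were near-identical. The count of 16 therefore cannot show an excess over chance. In each of the 16 groups the gap to the nearest library was large against the range of the group.

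Fresh whole embryo 4 held 143.1 RPKM of NDUFA1, where the next highest fresh embryo held 81.1 RPKM, and it was the lowest fresh embryo for NDUFA3 (6.30 RPKM, next 12.7), COX6A1 (442.0 RPKM, next 614) and COX4I1 (55.5 RPKM, next 101.8). Fresh TE 5 was the highest of its group for COX5A (15.9 RPKM, next 11.1), ATP5MC2 (46.3 RPKM, next 34.2), NDUFC2 (14.0 RPKM, next 10.5) and SDHB (1.77 RPKM, next 1.34). Fresh TE 1 was the highest for UQCRC2 (2.57 RPKM, next 2.30) and NDUFS1 (0.759 RPKM, next 0.546), fresh TE 2 for COX6B2 (0.223 RPKM, next 0.108) and fresh TE 4 for COX7A1 (0.354 RPKM, the other 4 at 0). Vitrified TE 5 was the highest for NDUFA3 (23.8 RPKM, next 16.4) and UQCRQ (822 RPKM, next 734). Fresh whole embryo 1 was the highest for COX6B2 (1.197 RPKM, next 0.574) and fresh whole embryo 6 the lowest for SDHA (1.67 RPKM, next 2.14).

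The vitrification effect differed between whole embryos and TE by the interaction test for 5 members chosen for their small p. The effect in whole embryos minus that in TE was -3.17 for NDUFS8, -2.79 for NDUFA3, -1.83 for NDUFA7, -1.41 for NDUFC2 and -1.29 for NDUFA4 on the log2(RPKM + 1) scale. The difference for NDUFA4 was not called under median-ratio scaling (adjusted p = 0.059 in limma).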

How the results depend on the processing

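Of the values that answer a comparison, 398 kept their direction and call under an alternative, 35 moved by more than 1.5 times, 14 lost their call and 1 gained it. Of the values of single members or medians, 1864 kept direction and call, 34 reversed direction, 74 lost their call, 11 gained it and 18 moved. The cause of these changes was not tested. In vitrified TE against fresh TE, 25 members rose and 36 fell scaled to listed reads (median -0.23), 27 and 32 off chromosome M (-0.13), 17 and 50 under median-ratio scaling (-0.68), and 21 and 41 under quantile normalization (-0.31). In fresh whole embryos against fresh TE the counts were 32 and 18, 34 and 18, 26 and 21 (median -0.046), and 23 and 24 under the same 4 scalings. In vitrified whole embryos against fresh ones 3 rose under median-ratio scaling. In vitrified whole embryos against vitrified TE 7, 2 (median -0.01), 1 (-0.018) and 1 (-0.044) were higher, with 1 lower under quantile normalization. The difference of effects was higher for 13, 12, 19 and 18 members and lower for 17 scaled to listed reads, 11 under median-ratio scaling (median 0.043) and 14 under quantile normalization.

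Median-ratio scaling turned the TE difference to -0.051 for COX6A1, -0.12 for NDUFS1, -0.88 for NDUFV1, -0.18 for UQCRFS1, -0.43 for COX4I1, -0.27 for ATP5F1B, -0.96 for ATP5IF1, -0.68 for NDUFA4, -0.45 for ATP5MC2 and -0.81 for ATP5MC3. Quantile normalization turned it to -0.22 for NDUFS1, -0.87 for NDUFV1, -0.037 for COX4I1, -0.26 for ATP5IF1, -0.16 for NDUFA4, -0.18 for ATP5MC2 and -0.015 for ATP5MC3. Scaled to listed reads it was -0.435 for NDUFV1, -0.48 for ATP5IF1, -0.21 for NDUFA4 and -0.33 for ATP5MC3, and off chromosome M -0.33, -0.37, -0.10 and -0.23 for the same 4.

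With only the groups compared in the fit, 3 members rose in vitrified against fresh whole embryos, and 2 were higher in vitrified whole embryos against vitrified TE. The labels do not say whether samples of the same number share an embryo. Of 14 samples 2 correlated best with their own number, and not every correlation was over 0.1. The 2 were fresh whole embryo 2 with fresh TE 2 (r = 0.16) and vitrified whole embryo 1 with vitrified TE 1 (r = 0.314). These correlations cannot decide on a pairing, since they also set vitrified beside fresh samples, which come from different embryos. With the replicate block, 18 members fell in vitrified whole embryos against fresh ones and 1 was higher in vitrified whole embryos against vitrified TE. No replicate block was fitted for the permutation tests of shares.

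Leaving out 1 library gave 39 to 41 higher and 17 to 19 lower members in vitrified TE against fresh TE, 3 to 6 and 12 to 38 in vitrified against fresh whole embryos, 58 to 60 and 8 to 11 in fresh whole embryos against fresh TE, and 0 to 13 and 0 in vitrified whole embryos against vitrified TE. The difference of effects was higher for 3 to 6 and lower for 28 to 43. A lone vitrified whole embryo is assumed to vary like the other groups. The ATP5MC1 share in fresh whole embryos against fresh TE differed by 5.84 to 7.998 percentage points (adjusted p = 0.063 to 0.076 where it was lost, exact permutation tests), and the COX7A1 share by 0.0623 to 0.111 (adjusted p = 0.038 without fresh TE 4 in an exact permutation test). With the near-identical fresh TE libraries averaged, the shares of ATP5MC1 and ATP5MC3 in vitrified TE against fresh TE differed by 17.4 and -16.65 points and those of ATP5MC1, ATP5MC2 and ATP5MC3 in fresh whole embryos against fresh TE by 6.17, 6.28 and -12.45 points, with adjusted p of 0.12 to 0.16.

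Over reads off chromosome M, the complex V share was 1.66% in vitrified whole embryos, 2.26% in fresh ones, 1.55% in vitrified TE and 2.48% in fresh TE, and all 5 complexes kept the order of the means of the groups compared, with ranges in TE that overlapped for complexes I and IV. Depth limits COX7A1, NDUFA4L2, COX6B2 and COX7B, with at most 30 reads in any library, and SDHD in fresh TE, and floors cover counting error only.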
